A study of Mus musculus with 18 samples.

Results

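The adenylyl cyclase genes Adcy1 to Adcy10 were examined in inguinal white adipose tissue (iWAT) adipocytes, epididymal white adipose tissue (eWAT) adipocytes and whole brown adipose tissue (BAT). The members were chosen by gene symbol, and all 10 were present among the 52093 symbols of the files. The 10 genes have 11 transcript rows in the files because Adcy9 has a pair of rows. Each symbol was read from its row with the highest mean expression, and the other row of Adcy9 is described separately. RNA-seq libraries were made from 6 samples of each kind, 18 in all, and for each row a read count and the RPKM were used, which is the count scaled to transcript length and library size. All samples came from male wild type mice, whose strain is C57BL/6 in one field of the labels, C57BL/6J in another and C57BL/6NTac in the notes on the study, and which had 12 weeks of high-fat diet (HFD), with an age of 16 weeks in the notes on the study. The diet is given by the sample titles and the design, whereas the treatment field of the labels names regular chow, and no chow-fed group is compared here. White adipocytes were collected as the floating layer after collagenase digestion, while BAT was frozen whole, so the BAT libraries hold every cell type of the pad and the difference between tissues includes the difference in preparation. The labels do not say whether samples with the same number came from the same mouse, and p-values measure the spread between these samples. In the results, iWAT and eWAT name the adipocyte samples.

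Adenylyl cyclases make cyclic AMP from ATP. In fat cells, receptors coupled to Gs, such as the β3-adrenergic receptor, stimulate the membrane-bound cyclases, and cyclic AMP then activates protein kinase A, which drives lipolysis in white adipocytes and heat production in brown adipocytes. Receptors coupled to Gi act against this in an isoform-dependent way. The α subunit of Gi is known to inhibit the products of Adcy1, Adcy3, Adcy5, Adcy6 and Adcy8, most clearly those of Adcy5 and Adcy6, whereas the products of Adcy2, Adcy4 and Adcy7 are insensitive to it and are stimulated by βγ subunits when Gs is active. Reports on the product of Adcy9 differ, and Adcy10 codes for the soluble cyclase, which responds to bicarbonate and calcium and not to G proteins. These assignments are background, and no cyclase activity was measured here.

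The libraries held 24655056 to 42518483 reads on annotated rows. BAT libraries had TMM scaling factors of 0.536 to 0.725, against 1.14 to 1.31 in iWAT and 1.22 to 1.31 in eWAT, so a given RPKM stands for a higher scaled level in BAT, and comparisons with BAT depend on this scaling. White depots were sequenced in lanes 1 and 2 and BAT in lanes 3 and 4, so lane and BAT cannot be told apart. Ucp1, the brown fat uncoupling protein, was at 1858 ± 237 RPKM (SD, n = 6) in BAT, 2.26 ± 0.591 in iWAT and 0.261 ± 0.0844 in eWAT. The eWAT samples carried many macrophage transcripts: Lyz2, a lysozyme of myeloid cells, reached 2212 ± 591 RPKM, above the 387 ± 178 RPKM of the adipocyte gene Adipoq. Among the eWAT samples, numbers 1 and 3 stood apart with 199 and 150 RPKM of Adipoq. Comparisons of members, shares and sums with eWAT are given with and without these libraries. Those of Cenpo and of the pathway genes are given with all eWAT samples only.

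The adenylyl cyclase genes fell into 3 tiers. Adcy3, Adcy4, Adcy6 and Adcy9 had means of at least 1 RPKM in every tissue. Adcy5 and Adcy7 reached this level in both white depots and not in BAT, and Adcy10 reached it only in BAT, at a mean of 1.03 RPKM. Adcy1, Adcy2 and Adcy8 stayed below 0.2 RPKM in every sample. By mean RPKM, the order in iWAT was Adcy5, Adcy6, Adcy7, Adcy3, Adcy4 and Adcy9. Among these neighbours, only Adcy6 and Adcy7 had ranges that did not overlap. In eWAT the order was Adcy7, Adcy3, Adcy5, Adcy6, Adcy9 and Adcy4. Adcy7 stood clear of Adcy3, and Adcy9 of Adcy4, while the ranges of the other neighbours overlapped. In BAT the order was Adcy6, Adcy3, Adcy9, Adcy4, Adcy10, Adcy7 and Adcy5, and ranges did not overlap between Adcy3 and Adcy9 or between Adcy4 and Adcy10.

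**Figure D1:**
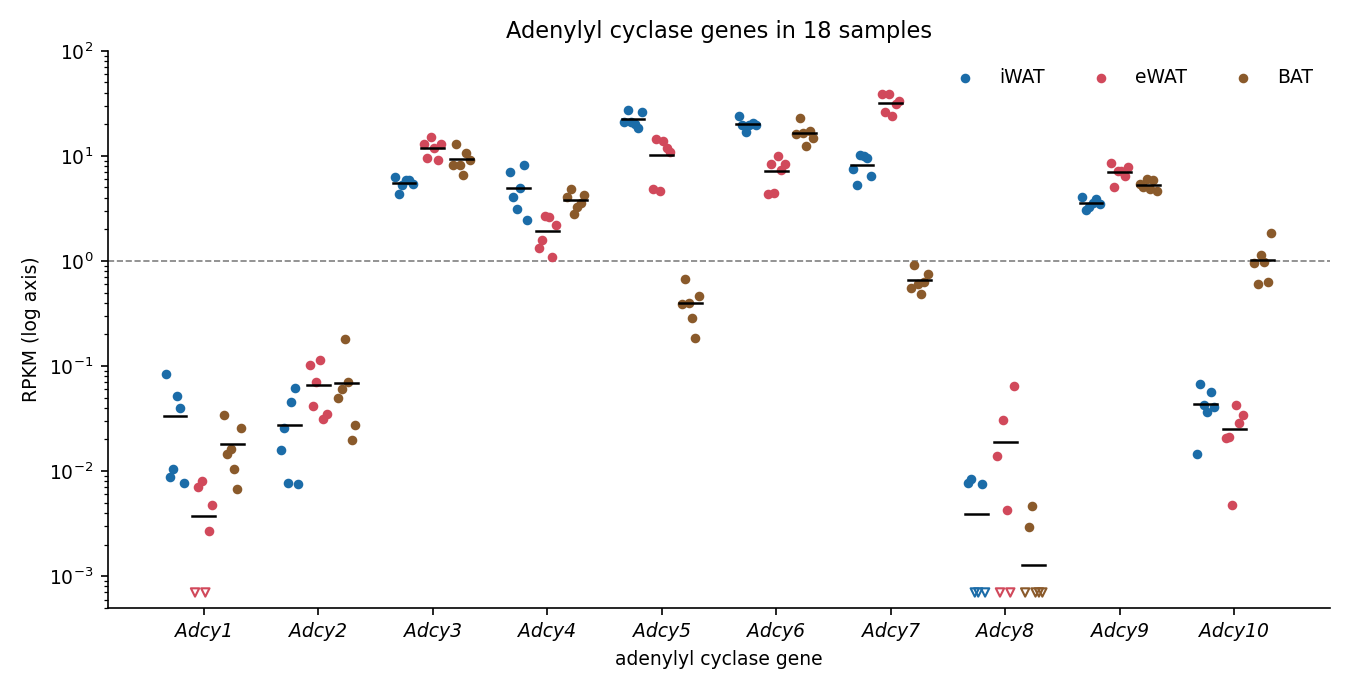
RPKM (log axis) of each adenylyl cyclase gene in the 6 iWAT, 6 eWAT and 6 BAT samples. Points are samples, black lines are means, open triangles at the lower edge are samples with 0 reads and the dashed line is 1 RPKM. Adcy5 and Adcy7 lie below the dashed line in all BAT samples, and Adcy10 lies near it in BAT and far below it in both white depots.

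Between iWAT and eWAT, 6 members had enough reads to be tested (a mean count of at least 10) and all 6 passed an adjusted p of 0.05 in edgeR's quasi-likelihood test. Adcy4, Adcy5 and Adcy6 were higher in iWAT, and Adcy3, Adcy7 and Adcy9 in eWAT. Of all genes tested, 68.6% passed in this comparison, 34.1% as higher in iWAT and 34.5% as higher in eWAT, so the share of members that passed was read against a high background. Between iWAT and BAT, 6 of 7 members tested passed, Adcy5 and Adcy7 being higher in iWAT and Adcy3, Adcy6, Adcy9 and Adcy10 in BAT, against 75.3% of all genes (38.1% higher in iWAT, 37.2% higher in BAT). In the third comparison, eWAT against BAT, 5 of 7 passed, Adcy5 and Adcy7 being higher in eWAT and Adcy4, Adcy6 and Adcy10 in BAT, against 82.5% of all genes (41.1% higher in eWAT, 41.4% higher in BAT). With 6 or 7 members tested, these counts stand against a high background, and the description turns on which members differed and by how much. The comparisons share samples. The median log2 fold change of the members tested was 0.08, -0.33 and -0.20 in the 3 comparisons, and that of all genes 0.00, 0.01 and -0.02.

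Comparisons with BAT are sensitive to scaling. When libraries were scaled only by their total count, the all-gene median moved on the log2 scale to 0.87 for iWAT over BAT and 0.89 for eWAT over BAT, and the share of calls that were higher in the white depot moved from 50.6% to 81.8% and from 49.8% to 76.1%. For the members, the calls higher in the white depot and in BAT then numbered 4 and 3 in both comparisons, against 2 and 4 and 2 and 3 with TMM scaling. The differences of Adcy5, Adcy7 and Adcy10 from BAT, those of Adcy3 and Adcy9 between iWAT and BAT and those of Adcy4 and Adcy6 between eWAT and BAT kept their direction under both scalings. Those of Adcy4 and Adcy6 between iWAT and BAT and of Adcy3 and Adcy9 between eWAT and BAT changed sign. With scaling by the total count these all passed the threshold as higher in the white depot.

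**Figure D2:**
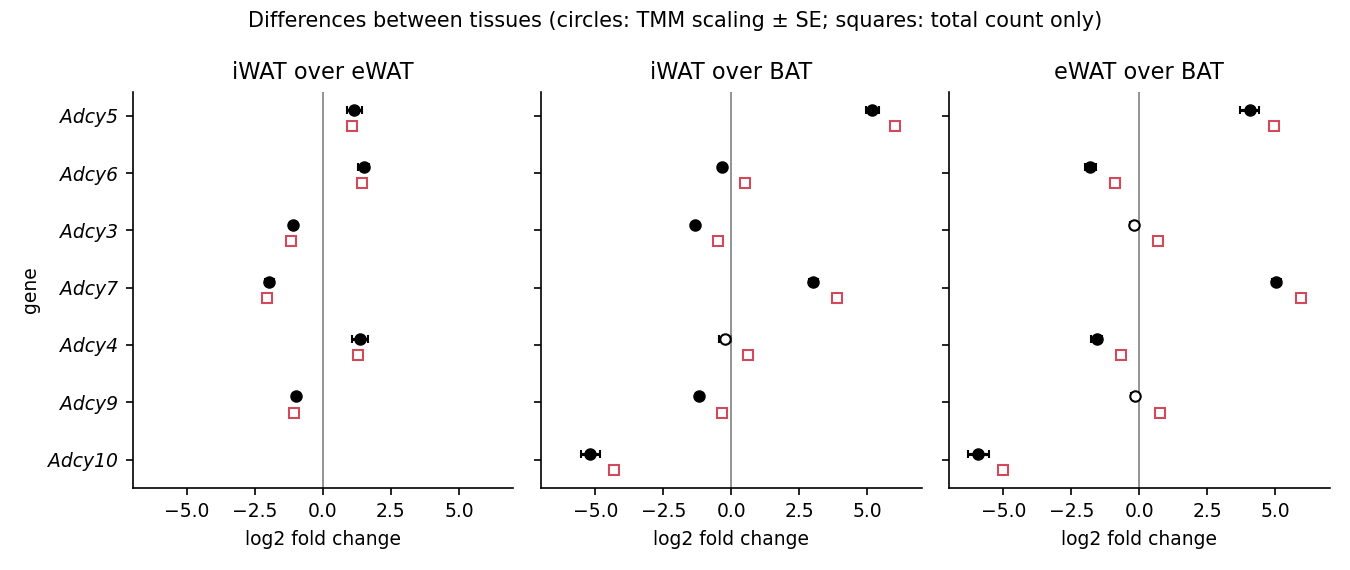
Log2 fold changes of the 7 members that could be tested in at least 1 of the 3 comparisons. Circles are estimates with TMM scaling and bars their SE, filled where the adjusted p was under 0.05, and open squares are estimates with scaling by the total count alone. Squares lie to the right of circles in both comparisons with BAT, and Adcy5 and Adcy7 stay on the white depot's side and Adcy10 on the side of BAT.

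Adcy5 and Adcy6 code for a closely related pair of cyclases that are inhibited by Gi and by calcium, and their genes differed in how they varied across the tissues. In iWAT Adcy5 ranged from 18.3 to 27.4 RPKM with a median of 20.8. In eWAT it ranged from 4.62 to 14.5 with a median of 11.3, and in BAT from 0.187 to 0.677 with a median of 0.393. The 3 ranges did not overlap, and Adcy5 was the most abundant member in iWAT and the least abundant of those above the low tier in BAT. With edgeR, the log2 fold change of Adcy5 was 5.19 (SE 0.24, adjusted p = 2.9e-11) for iWAT over BAT, a 36.4-fold difference. For eWAT over BAT it was 4.06 (SE 0.35, adjusted p = 3e-08), a 16.6-fold difference, and for iWAT over eWAT 1.15 (SE 0.28, adjusted p = 0.0026). In bulk samples, fewer cells of a type and less RNA per cell cannot be told apart. The lowest eWAT values of Adcy5, 4.79 and 4.62 RPKM, were those of eWAT 1 and 3. Without these samples the log2 fold change for iWAT over eWAT was 0.80 and remained past the threshold (adjusted p = 0.000506), and that for eWAT over BAT was 4.41.

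Adcy6 was at a high level in BAT as well. It ranged from 16.7 to 23.9 RPKM (median 19.8) in iWAT, from 4.34 to 9.92 (median 7.81) in eWAT and from 12.4 to 22.9 (median 16.2) in BAT. The eWAT range lay below both others, and those of iWAT and BAT overlapped. In the edgeR test Adcy6 was higher in iWAT than in eWAT by 1.498 on the log2 scale (SE 0.19, adjusted p = 2.1e-05) and lower in eWAT than in BAT (log2 fold change -1.81, SE 0.19, adjusted p = 3.7e-07). Between iWAT and BAT the log2 fold change was -0.33 (SE 0.10, adjusted p = 0.0077), and this call was not stable. With scaling by the total count the value was 0.52 and passed in the other direction (edgeR adjusted p = 0.00233). With all 18 samples in a single fit the adjusted p was 0.0726. The lowest eWAT values of Adcy6, 4.34 and 4.42 RPKM, were again those of eWAT 1 and 3, and without them the log2 fold change was 1.23 for iWAT over eWAT and -1.53 for eWAT over BAT. The TMM-scaled means of Adcy6 were 17.6, 6.30 and 22.4 RPKM in iWAT, eWAT and BAT, whereas its unscaled means were 20.1 ± 2.30, 7.12 ± 2.28 and 16.6 ± 3.51 (SD, n = 6 each). The ratio of Adcy5 to Adcy6 RPKM, which does not depend on the scaling, ran from 0.874 to 1.39 in iWAT, from 1.05 to 1.72 in eWAT and from 0.0108 to 0.0319 in BAT. Thus both transcripts were present at similar levels in white adipocytes, and the ratio in each BAT sample was far below that in every white sample. Summed adipocyte markers were at 2752 to 4058 RPKM in iWAT, 547 to 1904 in eWAT and 782 to 995 in BAT, all 5 markers being highest in iWAT. Per 1000 RPKM of these markers, Adcy5 was at 5.56 to 6.75 RPKM in iWAT, 6.46 to 8.45 in eWAT and 0.188 to 0.693 in BAT. The white depots thus came close to each other on this ratio and BAT did not. For Adcy6 the same ratio was 4.87 to 7.42, 4.24 to 8.08 and 15.9 to 23.4. The part of adipocyte content in these differences was not tested.

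Adcy3, which codes for the cyclase of odorant signalling and is also known in adipose tissue, was lowest in iWAT. It was measured at 4.37 to 6.34 RPKM (median 5.67) there, at 9.22 to 15.2 (median 12.4) in eWAT and at 6.51 to 12.97 (median 8.59) in BAT. The iWAT range lay below both others, and those of eWAT and BAT overlapped. The edgeR log2 fold change was -1.10 (SE 0.12, adjusted p = 4e-06) for iWAT over eWAT and -1.34 (SE 0.11, adjusted p = 2.8e-08) for iWAT over BAT. For eWAT over BAT it was -0.20 (SE 0.14, adjusted p = 0.18), and it turned to 0.69 (edgeR adjusted p = 0.0011) with scaling by the total count. Without eWAT 1 and 3 it was -0.33 (adjusted p = 0.0386), while that for iWAT over eWAT was -0.98. In the GENCODE annotation of the mm9 build, 1380 of the 6246 exon bases of Adcy3 (22.1%) are shared with Cenpo, a centromere protein gene on the opposite strand, and the sources used here do not state whether the counting used strand. Cenpo had 2.63 ± 0.282, 5.12 ± 0.804 and 4.24 ± 0.804 RPKM (SD, n = 6 each) in iWAT, eWAT and BAT, with edgeR log2 fold changes of -0.95, -1.29 and -0.31 in the same 3 comparisons. If strand was not used, reads of the pair cannot be told apart where they overlap. As this is not known, the level of Adcy3 is uncertain to that extent. No other member shares exon bases with a GENCODE gene of another name. In the files, the spans of Adcy2, Adcy5 and Adcy10 also hold 4, 3 and 2 rows named by AK transcripts, with mean levels of at most 0.00179, 1.09 and 0.0342 RPKM.

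Adcy7 and Adcy4, the Gi-insensitive members with measurable levels, moved in opposite directions between the white depots. Adcy7, whose product is known from blood cells and their relatives, was the most abundant member in eWAT at 23.9 to 38.9 RPKM (median 32.4). In iWAT it was at 5.27 to 10.1 RPKM (median 8.50) and in BAT at 0.488 to 0.908 (median 0.615). The 3 ranges lay far apart. By edgeR, Adcy7 was 3.92-fold higher in eWAT than in iWAT (log2 fold change -1.97 for iWAT over eWAT, SE 0.17, adjusted p = 7.9e-07). It was 8.14-fold higher in iWAT than in BAT (log2 fold change 3.02, SE 0.17, adjusted p = 2.4e-10) and 32.6-fold higher in eWAT than in BAT (log2 fold change 5.03, SE 0.17, adjusted p = 6.6e-13). Macrophage markers took the same order. Their summed level was 2559 to 4103 RPKM in eWAT, 453 to 894 in iWAT and 25.1 to 50.1 in BAT, all 6 markers were highest in eWAT, and none was at 0 in any tissue. Per 1000 RPKM of macrophage markers, Adcy7 was at 9.35 to 12.1 RPKM in eWAT, 10.7 to 14.6 in iWAT and 12.8 to 19.4 in BAT. This ratio varied far less than the level of Adcy7 itself, and it was higher in every BAT sample than in every eWAT sample. In each tissue the sample with the highest macrophage sum also had the highest Adcy7, and the same held for the lowest. The part of macrophage RNA in the level of Adcy7 was not tested. Without eWAT 1 and 3, which had the highest macrophage sums and the highest Adcy7 (38.9 and 38.4 RPKM), the log2 fold change was -1.83 for iWAT over eWAT and 4.88 for eWAT over BAT.

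Adcy4, which is known from endothelial and other vascular cells, was at 2.47 to 8.12 RPKM (median 4.51) in iWAT, 1.09 to 2.69 (median 1.89) in eWAT and 2.82 to 4.87 (median 3.82) in BAT. The iWAT range overlapped both others, while those of eWAT and BAT did not overlap. In edgeR, Adcy4 was higher in iWAT than in eWAT by 1.37 on the log2 scale (SE 0.29, adjusted p = 0.0011) and lower in eWAT than in BAT (log2 fold change -1.58, SE 0.20, adjusted p = 2.6e-06). For iWAT over BAT the log2 fold change was -0.24 (SE 0.22, adjusted p = 0.34), turning to 0.63 (adjusted p = 0.0234) with scaling by the total count. Without eWAT 1 and 3 the values were 1.38 for iWAT over eWAT and -1.59 for eWAT over BAT. Summed endothelial markers, led by Cdh5, were at 125 to 359 RPKM in iWAT, 44.0 to 91.4 in eWAT and 82.3 to 125 in BAT, all 6 markers being highest in iWAT and none at 0. The iWAT samples with the highest endothelial sums, iWAT 1 and 5, also had the highest Adcy4 (7.04 and 8.12 RPKM), and iWAT 16 was lowest in both. In eWAT and BAT the order was not shared to this extent: the highest Adcy4 was in eWAT 3 and BAT 2 and the highest endothelial sum in eWAT 4 and BAT 1, and the lowest values fell on the same sample in BAT (BAT 5) and on different ones in eWAT. The samples iWAT 1 and 5 were also highest among the iWAT samples in other marker lists, with 173 and 221 RPKM of pericyte and smooth muscle markers against 77.7 to 112 in the others and 72.1 and 92.6 RPKM of fibroblast and progenitor markers against 43.8 to 57.1. Without iWAT 1 and 5 the log2 fold change of Adcy4 was 0.99 for iWAT over eWAT (adjusted p = 0.00613) and -0.62 for iWAT over BAT (adjusted p = 0.00381), the latter then past the threshold. Per 1000 RPKM of endothelial markers, Adcy4 was at 19.8 to 23.9 RPKM in iWAT, 23.4 to 33.6 in eWAT and 32.2 to 46.8 in BAT. The part of endothelial RNA, or of RNA from those other cells, in these values was not tested.

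**Figure D3:**
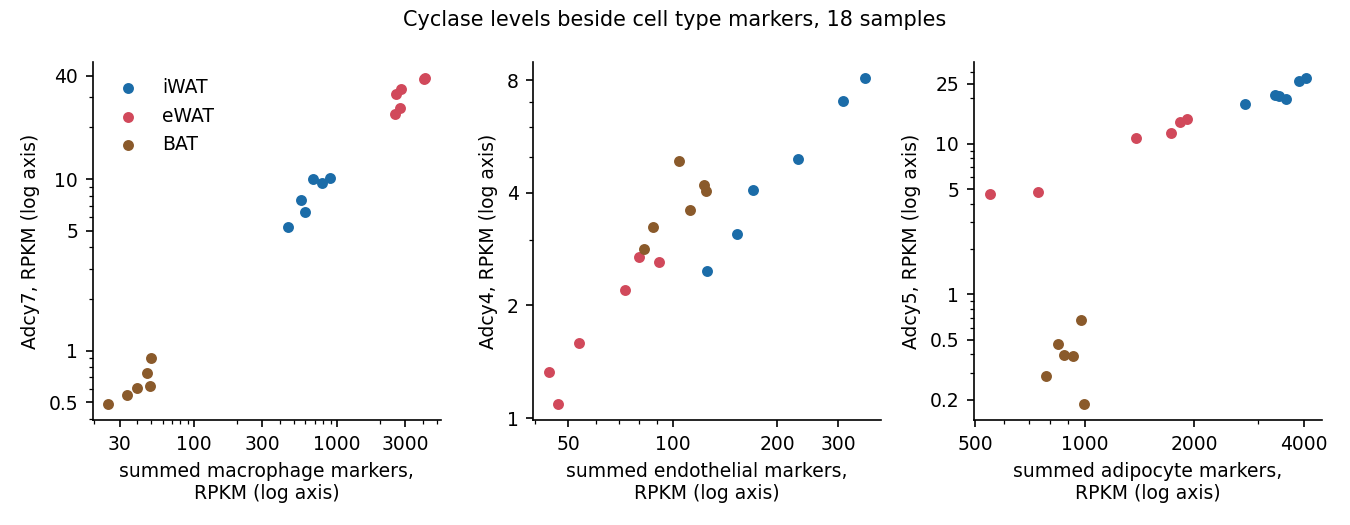
Adcy7 beside summed macrophage markers, Adcy4 beside summed endothelial markers and Adcy5 beside summed adipocyte markers, in RPKM on log axes, with 1 point per sample. Adcy7 lies along a band that runs through the tissues. Adcy4 does not lie along a single band, being at 32.2 to 46.8 RPKM per 1000 RPKM of endothelial markers in BAT and 19.8 to 23.9 in iWAT. Adcy5 in the 6 BAT samples, at 0.187 to 0.677 RPKM, lies far below all white samples, the lowest of which is at 4.62. No white sample has an adipocyte sum within the BAT range of 782 to 995 RPKM, the nearest being eWAT 1 at 742.

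Adcy9 codes for a widely expressed membrane cyclase, and its values depend on which of its rows is read. The row with the higher mean, used here by the rule, is a single exon of 1263 bases at chr16:4284889-4286151 of mm9, 1378 bases beyond the downstream end of the GENCODE gene. On this row Adcy9 was at 3.07 to 4.01 RPKM (median 3.52) in iWAT, 5.00 to 8.64 (median 7.17) in eWAT and 4.597 to 5.99 (median 5.20) in BAT. The iWAT range lay below both others. The edgeR log2 fold change was -0.98 (SE 0.12, adjusted p = 1.1e-05) for iWAT over eWAT, -1.18 (SE 0.10, adjusted p = 1.9e-08) for iWAT over BAT and -0.17 (SE 0.13, adjusted p = 0.22) for eWAT over BAT. Without eWAT 1 and 3 the values for iWAT over eWAT and eWAT over BAT were -0.91 and -0.25. The other row covers 11 exons within the annotated gene and had lower means of 2.32 ± 0.298, 4.68 ± 0.589 and 1.86 ± 0.659 RPKM (SD, n = 6 each) in iWAT, eWAT and BAT. The white depots differed by the same amount on this row (log2 fold change -1.005, adjusted p = 1.41e-06), whereas the comparisons with BAT changed. For iWAT over BAT the value was -0.29 and no longer passed (adjusted p = 0.131), and for eWAT over BAT it turned to 0.75 (adjusted p = 0.000904). The 11-exon row had 0.591 to 0.745 of the RPKM of the 1-exon row in iWAT, 0.595 to 0.739 in eWAT and 0.243 to 0.573 in BAT. Only the higher level in eWAT than in iWAT is therefore shared by both rows.

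**Figure D4:**
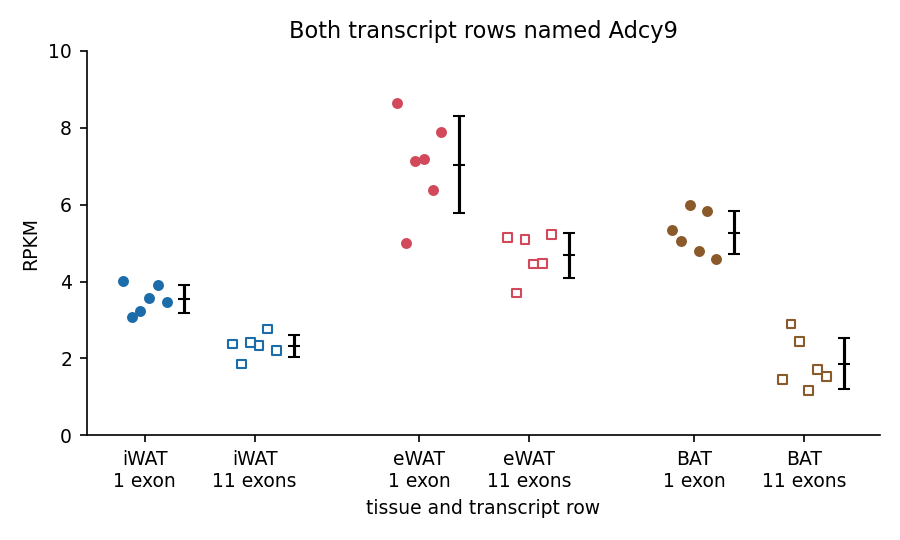
RPKM of both transcript rows named Adcy9 in each sample, with filled circles for the 1-exon row, open squares for the 11-exon row and bars for mean ± SD of 6 samples. The gap between the rows is wider in BAT, at means of 5.27 and 1.86 RPKM, than in iWAT, at 3.54 and 2.32.

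Adcy10, the gene of the soluble cyclase, was low everywhere and highest in BAT. There it ranged from 0.602 to 1.85 RPKM (median 0.965), from 157 to 444 reads a sample. In iWAT it had 3 to 13 reads (0.0145 to 0.0678 RPKM) and in eWAT 1 to 8 reads (0.00479 to 0.0430 RPKM). No white sample came near the lowest BAT sample. By edgeR the log2 fold change was -5.18 (SE 0.36, adjusted p = 2.6e-09) for iWAT over BAT, so that Adcy10 was 36.2-fold higher in BAT, and -5.92 (SE 0.38, adjusted p = 1.1e-09) for eWAT over BAT, 60.7-fold higher in BAT. These folds rest on few reads in the white depots, and between the white depots Adcy10 was not tested at this depth. Without eWAT 1 and 3 the value for eWAT over BAT was -5.59. BAT 18 had the highest value, 1.85 RPKM, and the next was 1.15 RPKM in BAT 5. Per 1000 RPKM of brown adipocyte markers, Adcy10 was at 0.157 to 0.480 RPKM in BAT, 0.386 to 1.97 in iWAT and 1.05 to 4.32 in eWAT, the white values resting on few reads. The BAT samples with the lowest Adcy10, BAT 2 and 17 (0.602 and 0.631 RPKM), also had the lowest sums of skeletal muscle markers, 1.22 and 15.1 RPKM against 56.8 to 98.6 in the other BAT samples, BAT 18 being at 56.8. The part of muscle RNA in the level of Adcy10 was not tested.

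Adcy1, Adcy2 and Adcy8, which are known mainly from the nervous system, were near the limit of detection, and none reached the mean count needed for the test in any comparison. Adcy1 had 3 to 31 reads in iWAT, at most 3 in any eWAT sample and 3 to 14 in BAT, with a highest value of 0.0837 RPKM in iWAT 1. Adcy2 had 1 to 8 reads in iWAT, 4 to 18 in eWAT and 3 to 19 in BAT. Adcy8 had at most 2 reads in iWAT, at most 1 in BAT and 0 to 19 in eWAT. Adcy8 was at 0 reads in 3 of 6 iWAT, 2 of 6 eWAT and 4 of 6 BAT samples, where a limit of 3 reads allows up to 0.0112, 0.0115 and 0.0149 RPKM. Limits and counts cover counting error only.

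The makeup of the family was compared as each member's percent of the summed RPKM of all 10. In iWAT Adcy5 contributed 34.5 ± 6.18% (SD, n = 6) and Adcy6 31.0 ± 1.91%. In eWAT Adcy7 alone contributed 45.4 ± 7.70% and Adcy3 16.95 ± 2.59%. In BAT, Adcy6 contributed 44.6 ± 2.25% and Adcy3 24.7 ± 2.20%. The Gi-inhibited class (Adcy1, Adcy3, Adcy5, Adcy6 and Adcy8) made up 67.4 to 80.5% in iWAT (mean 74.2 ± 5.27%), 31.2 to 51.3% in eWAT (41.7 ± 8.24%) and 66.7 to 76.1% in BAT (70.4 ± 3.39%). All eWAT samples lay below all others, and the iWAT and BAT ranges overlapped. The share was higher in iWAT than in eWAT by 32.4 percentage points and lower in eWAT than in BAT by a difference of -28.6 points (exact two-sided permutation test over samples, p = 0.00216 each, the smallest that 6 against 6 allows, adjusted p = 0.00325 over the 3 comparisons). Between iWAT and BAT it differed by 3.78 points (exact permutation test, adjusted p = 0.175). This last difference depends on how the class is drawn and was called in both directions. It turned to -5.23 points when Adcy9 was counted as Gi-inhibited (exact permutation test, adjusted p = 0.0476). It grew to 19.9 points when Adcy3 was left out of the class (exact permutation test, adjusted p = 0.00216). With the 11-exon row of Adcy9 it was -2.21 points and with shares of reads in place of RPKM -1.91 points, neither passing the threshold. When the rows of a symbol were summed it was 6.14 points (exact permutation test, adjusted p = 0.0281). That setting scaled the reads of both Adcy9 rows to the 1263 bases of the 1-exon row and overstated Adcy9. No conclusion is drawn from the 6.14 points. Without eWAT 1 and 3 the white depots differed by 27.7 points and eWAT from BAT by -23.9 points. The Gi-insensitive class (Adcy2, Adcy4 and Adcy7) made up 20.3 ± 5.00% in iWAT, 48.2 ± 7.44% in eWAT and 12.2 ± 1.46% in BAT. Its large share in eWAT was almost wholly that of Adcy7, which stood beside the macrophage markers described above, and the part of macrophage RNA in the shares was not tested.

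The summed RPKM of the family was 64.6 ± 3.48 in iWAT, 70.2 ± 3.79 in eWAT and 37.1 ± 6.30 in BAT (SD, n = 6 each). It was higher in iWAT and in eWAT than in BAT by 27.5 and 33.1 RPKM (exact permutation test, adjusted p = 0.00325 each) and differed by -5.66 RPKM between iWAT and eWAT (exact permutation test, adjusted p = 0.0216). After TMM scaling the sums were 56.7 ± 2.25, 61.9 ± 2.99 and 50.1 ± 5.49, and the differences from BAT shrank to 6.56 and 11.8 (exact permutation test, adjusted p = 0.026 and 0.013). Without eWAT 1 and 3 the white depots differed by -4.84 RPKM (exact permutation test, adjusted p = 0.0952) and eWAT from BAT by 32.3 RPKM. With the rows of a symbol summed, the difference between the white depots was -15.4 RPKM (exact permutation test, adjusted p = 0.00216). That setting scaled the reads of both Adcy9 rows to the 1263 bases of the 1-exon row. It thus overstated the longer 11-exon row, and no conclusion is drawn from this value.

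**Figure D5:**
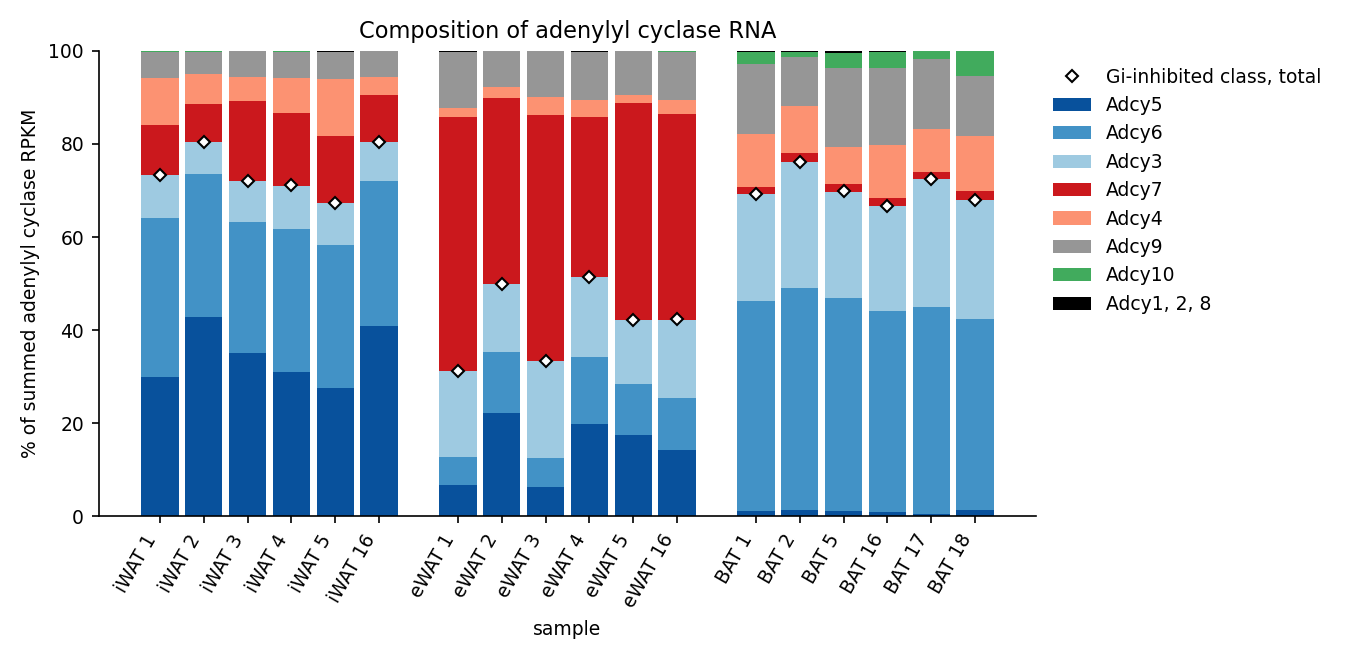
Percent of the summed adenylyl cyclase RPKM given by each gene in each of the 18 samples. Blue parts are the Gi-inhibited genes Adcy5, Adcy6 and Adcy3, red parts the Gi-insensitive Adcy7 and Adcy4, grey Adcy9 and green Adcy10, and diamonds give the total of the Gi-inhibited class, which is 31.2 to 51.3% in eWAT and 66.7% or more in BAT and iWAT.

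The promoters of Adcy5, Adcy7 and Adcy10 are shown because these genes differed most between white adipocytes and BAT. RefSeq windows on GRCm38.p6, from 250 bases before to 50 after a gene's start, were matched by symbol for 8 of the 10 members, which had 11 windows in all, and not for Adcy6 and Adcy8. They were searched on both strands for the cyclic AMP response element TGACGTCA, the GC box GGGCGG and the letters AGGAAG found in many ETS factor sites. These are present in 1.79%, 35.7% and 35.4% of all 32851 windows. Matches are in capitals, no printed matches share bases, and the sequences run 5′ to 3′ along the gene's strand.
Adcy5, chr16:35154614-35154913, plus strand: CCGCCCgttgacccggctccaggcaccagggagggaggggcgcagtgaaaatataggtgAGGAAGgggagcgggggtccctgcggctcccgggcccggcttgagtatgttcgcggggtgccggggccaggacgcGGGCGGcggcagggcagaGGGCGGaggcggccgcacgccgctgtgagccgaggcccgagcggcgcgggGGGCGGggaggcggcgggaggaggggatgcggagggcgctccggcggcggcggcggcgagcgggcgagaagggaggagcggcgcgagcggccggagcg
Adcy7, the third of its start sites, chr8:88293954-88294253, plus strand: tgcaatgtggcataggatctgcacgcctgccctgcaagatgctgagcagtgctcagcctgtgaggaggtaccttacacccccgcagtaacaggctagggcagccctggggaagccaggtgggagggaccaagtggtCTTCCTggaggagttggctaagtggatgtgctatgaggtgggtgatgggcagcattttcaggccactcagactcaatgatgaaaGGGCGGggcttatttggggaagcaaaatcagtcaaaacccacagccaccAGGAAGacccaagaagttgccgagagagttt
Adcy10, chr1:165484933-165485232, plus strand: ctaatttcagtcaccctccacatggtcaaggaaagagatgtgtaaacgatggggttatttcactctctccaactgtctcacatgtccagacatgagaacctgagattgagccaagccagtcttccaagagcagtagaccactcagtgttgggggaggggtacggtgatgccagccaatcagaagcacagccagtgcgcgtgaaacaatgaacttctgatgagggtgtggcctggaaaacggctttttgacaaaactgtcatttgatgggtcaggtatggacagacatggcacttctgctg
The Adcy5 window holds 4 GC boxes and 1 AGGAAG and is 79.0% G and C, above 98.6% of all windows, whose median is 52.7%. The Adcy7 window shown holds 1 GC box and 2 copies of AGGAAG, and each of the other windows of Adcy7 holds 1 copy of AGGAAG. The Adcy10 window, at 49.3% G and C, holds none of the motifs. No member's window holds TGACGTCA. These matches describe the letters only.

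The genes whose pattern was most like that of each member were ranked by Pearson's r over the 18 samples on the log2(TMM-scaled RPKM + 0.1) scale, among 12244 genes. The values are a description, since the samples fall into 3 tissues, so r is also given on deviations from the tissue means. For Adcy5 the nearest genes were Lbp (r = 0.997, 0.98 on deviations), Sfrp5 and Serpina3n (both 0.997, 0.95 on deviations), which code for secreted proteins. Adcy7 was nearest to Myo1g (0.999, 0.93 on deviations), a myosin of blood cells, then to Slc25a13 and Galnt6. Adcy4 was nearest to Ltbp4, Cyyr1 and Lamc3 (all 0.98, with 0.96, 0.93 and 0.93 on deviations). For Adcy6 the nearest were Pcsk6, Wwc2 and 2410066E13Rik (all 0.99, with 0.93, 0.92 and 0.90 on deviations). Adcy3 was nearest to Inppl1 (0.98, 0.83 on deviations), then to its overlapping neighbour Cenpo (0.97, 0.77 on deviations) and to 2310003H01Rik (0.96, 0.75 on deviations). Adcy9 gave lower values within tissues, with Gm12942, Naa20 and Sirt2 at 0.97, 0.97 and 0.96 and at 0.66, 0.67 and 0.63 on deviations. For Adcy10 the nearest were Slc2a5, a fructose transporter gene, Acly and 2310069B03Rik (all 0.99, with 0.83, 0.82 and 0.81 on deviations). Between members, Adcy5 and Adcy6 had an r of 0.80 on deviations from the tissue means, the highest of all pairs, and of -0.33 over all 18 samples. The samples eWAT 1 and 3 had the lowest eWAT values of both genes. All correlations were computed with these samples included only.

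The wider cyclic AMP pathway was followed with a list of 64 genes. Gnas, which codes for the stimulatory subunit of Gs, was at 30.2 ± 1.21, 23.7 ± 1.67 and 94.6 ± 10.97 RPKM (SD, n = 6 each) in iWAT, eWAT and BAT, and Gnai2, which codes for an inhibitory subunit, at 94.7 ± 15.9, 139 ± 15.1 and 26.5 ± 3.69. Gnas had its highest mean in BAT and Gnai2 in eWAT. Adrb3, the β3-adrenergic receptor gene, was at 13.02 ± 3.97, 7.53 ± 4.82 and 80.8 ± 22.9 RPKM. Between iWAT and eWAT, 61 genes of the list were tested in edgeR, 32 being higher in iWAT, 15 higher in eWAT and 14 not called, with a median log2 fold change of 0.57. Of all genes tested, 34.1% were higher in iWAT and 34.5% in eWAT, with a median of 0.00. The largest changes were in the glucagon receptor gene Gcgr (2.40), the receptor gene Gipr (2.40) and Cap2 (1.91), which codes for an actin regulator of the cyclase-associated protein family. These changes rest on few reads in eWAT, at most 6, 25 and 12 in any sample. Between iWAT and BAT, 25 of 61 were higher in iWAT, 18 higher in BAT and 18 not called, with a median of 0.17, against 38.1% and 37.2% of all genes and a median of 0.01. Mc2r, the corticotropin receptor gene, led with 4.14 on the log2 scale and Adora2b, an adenosine receptor gene, had 3.91. Mc2r had at most 46 reads and Adora2b at most 10 in any BAT sample. Gcgr had at most 3 reads in any BAT sample and was at least 2.68-fold higher in iWAT, taking 3 reads in a library as the floor. Between eWAT and BAT, 28 of 59 were higher in eWAT, 27 higher in BAT and 4 not called, with a median of -0.12, against 41.1% and 41.4% of all genes and a median of -0.02. The largest changes were in Adrb1 (-5.46), Adora2b (5.45) and Adrb3 (-4.01), with at most 36 reads of Adrb1 in any eWAT sample. Among the 16 phosphodiesterase genes, whose products break down cyclic AMP, 10 were higher in iWAT and 3 in eWAT, 4 were higher in iWAT and 8 in BAT, and 4 were higher in eWAT and 10 of the 15 tested in BAT. These counts and those of the next group stand against the 68.6%, 75.3% and 82.5% of all genes that passed in the 3 comparisons. All 5 Gαi family genes were tested in every comparison, with 3 higher in iWAT and 2 in eWAT, 3 higher in iWAT and 1 in BAT, and 3 higher in eWAT and 2 in BAT.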

How the data were processed

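Per the labels and the methods of the study, libraries were made with a NEBNext Ultra kit from total RNA with an RNA integrity number above 8, and the submitters' processing notes name cutadapt 1.16, HISAT2 2.1.0 and the mm9 build, while the counting program and its use of strand are not given in the sources used here. The authors deposited, for each transcript row, a read count and an RPKM value computed from it. Here the row with the highest mean RPKM was taken for each symbol. Tissues were compared pairwise on the counts of their 12 samples with edgeR 4.0.16 (glmQLFit, glmQLFTest, TMM scaling, two-sided) in R 4.3.3, for genes whose mean count was 10 or more, with Benjamini-Hochberg adjustment over all genes tested and a threshold of 0.05. SEs were derived from the F statistic. Shares and sums of RPKM per sample were compared by exact permutation of the samples. The test was also run on simulated data, with the outcome not given here, and no conclusion is drawn from that run. No pair of samples agreed within sampling noise (lowest chi-square per degree of freedom 15.7). Members, pathway genes and markers were chosen with earlier results of these data known. Named genes were all members, Gnas, Gnai2, Adrb3, the 3 pathway genes with the largest called change in each comparison, the top marker of each cell type list (1 list is not reported here) and the 3 genes most like each member, and Cenpo was named for its overlap. Alternatives were DESeq2 1.42.0, limma 3.58.1 on log2(RPKM + 0.1) and log2(RPKM + 1), no scaling, no filter, rows summed, all samples in a single fit, lane as a covariate, a replicate block, each sample left out and other class definitions. The 11-exon row of Adcy9 and the fits without eWAT 1 and 3 or without iWAT 1 and 5 were added after seeing the data. Figures used matplotlib 3.10.9, and tables Python 3.11.15, numpy 2.4.6 and pandas 2.3.3.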

Additional observations from a re-analysis of the deposited data

Results flagged for a closer look

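Adcy2 in BAT 5 stood far from the other BAT samples, at 0.181 RPKM against 0.0197 to 0.0711 RPKM in the others, and this value rests on 19 reads. Among 36 groups of 6 samples examined in this way, 1 was marked, where chance marks about 1 in 20 groups, or 1.8 here. BAT 5 also had the highest sum of skeletal muscle markers among BAT samples, 98.6 RPKM against 1.22 to 78.6 in the others, and the part of muscle RNA in this value was not tested.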

How the results depend on the processing

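With DESeq2, all calls on members kept their side of the threshold and their direction. Leaving out each sample in turn also changed no call, with 6, 6 and 5 members called in the 3 comparisons (iWAT over eWAT, iWAT over BAT, eWAT over BAT). Signs turned in comparisons with BAT only. For iWAT over BAT, Adcy4 had log2 fold changes of 0.28, 0.24 and 0.63 and Adcy6 of 0.29, 0.27 and 0.52 with limma at a pseudocount of 0.1, limma at 1 and no scaling beyond the total count. For eWAT over BAT, Adcy3 had 0.38, 0.35 and 0.69 and Adcy9 0.40, 0.35 and 0.74 in the same order, and Adcy9 had 0.44 with rows summed and 0.75 on its 11-exon row. All of these turned values passed the threshold except those of Adcy4 with limma. With limma at 0.1 the median of all genes moved to 0.54 and 0.48 in these comparisons. The Gi-inhibited share of iWAT less BAT turned to -5.23 points with Adcy9 counted as Gi-inhibited, where it passed the threshold, and to -2.21 with the 11-exon row and -1.91 with shares of reads, where it did not. It also passed at 19.9 points without Adcy3 and at 6.14 with rows summed, a setting that overstated Adcy9 as described above. The summed RPKM of iWAT less eWAT no longer passed without eWAT 1 and 3 (-4.84). Members called without the filter on low counts numbered 7, 6 and 7 of the 10 then tested. The 6 for iWAT over BAT were not the same members as with the filter. Adcy6 was no longer called there (log2 fold change -0.23, edgeR adjusted p = 0.0745), and a member with few reads was. Of all genes, 14431 of 39134, 19467 of 39069 and 22026 of 39705 passed in that setting.

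The labels do not say whether equal title numbers mark 1 mouse, and the samples showed no pairing: the mean correlation of same-numbered samples was -0.00208, -0.0200 and -0.0159 over 14157 genes, and in 3 of 14 cases, each a sample set against another tissue, the best correlation was with its own number. With the replicate block, 6 of 6, 5 of 8 and 5 of 7 members were called, against 12836 of 19623, 12486 of 19667 and 15146 of 20091 genes. The change of Adcy6 for iWAT over BAT was then -0.31 (adjusted p = 0.0853 in edgeR). In paired form, the share of eWAT less BAT was -29.1 points and the sums differed from BAT by 32.8 (eWAT) and 28.9 (iWAT) RPKM, and 4 pairs cannot give an exact p below 0.125. Few reads limit Adcy1, Adcy2 and Adcy8 in all tissues and Adcy10 in the white depots.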

Other observations

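The marker lists of other cell types had these levels. Summed fibroblast and progenitor markers, led by Col1a1, were at 43.8 to 92.6 RPKM in iWAT, 46.7 to 77.2 in eWAT and 16.7 to 26.6 in BAT. Pericyte and smooth muscle markers, led by Rgs5, were at 77.7 to 221, 21.5 to 53.1 and 92.0 to 131 RPKM in the same order. Of these 4 markers, 3 had their highest mean in iWAT and 1 in BAT. Skeletal muscle markers, led by Acta1, were at 3.84 to 16.1 and 1.15 to 4.83 RPKM in the white depots and varied widely in BAT, from 1.22 to 98.6 RPKM. Brown adipocyte markers summed to 28.7 to 44.6, 4.54 to 15.2 and 2677 to 3874 RPKM. Mesothelial markers, led by Lrrn4, were at 1.90 to 2.70, 2.16 to 4.24 and 7.02 to 9.90 RPKM. The BAT sum was almost wholly that of Lrrn4, the other 2 markers having at most 3 reads in every BAT sample. Of the 3 mesothelial markers, 2 had their highest mean in eWAT and 1 in BAT. Mast cell markers, led by Kit, summed to at most 4.23 RPKM and B cell markers, led by Cd79b, to at most 2.17 RPKM in any sample. T cell markers, led by Cd3d, reached at most 0.264 RPKM.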
